A study of Mus musculus with 6 samples.

Results

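Hgf, Angpt2, Tek, Tie1, Pdgfb and Kitl encode growth factors that endothelial cells release and the receptors of the Tie family that they carry. All 6 genes, 6 of the 39179 in the deposited table, were taken by symbol and found once each. Their levels were read in liver endothelial cells of male mice of the 129S6/SvEvTac strain, wild type, sorted by flow cytometry as CD31+ CD146+ cells without CD45, lineage markers, MHC class II or CD64. Mice of the control_iron group ate a purified diet with 37 ppm iron as ferric citrate, and mice of the high_iron group the same type of diet with 10000 ppm carbonyl iron. Both groups ate it from 3 weeks of age for 4 weeks and were sampled at 7 weeks, with 3 biological replicates per group. Whether a replicate is 1 mouse or a pool is not given in the sources used here.

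Hepatocyte growth factor, the product of Hgf, binds the receptor MET on hepatocytes and promotes their growth and survival; in liver it is known above all from stellate cells and also from sinusoidal endothelium. Angiopoietin signalling acts on the endothelium itself: TEK, also called TIE2, is the receptor for angiopoietins, TIE1 is a related receptor without a well-established angiopoietin of its own that modifies TEK signalling, and ANGPT2 is the context-dependent ligand that endothelial cells make and that can oppose ANGPT1. PDGF-B from endothelium recruits pericytes through PDGFRB, and KIT ligand acts on cells that carry the receptor KIT.

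Of the 6 genes, Hgf rose on the high-iron diet, by 3.62-fold on the fitted scale, and the other 5 did not pass the threshold in either direction. Of all genes tested 0.832% rose. Tie1 and Tek, the best expressed of the 6, had fold changes of opposite sign that did not pass singly, but the ratio of Tie1 to Tek was between 0.857 and 0.970 in the control_iron libraries and between 1.42 and 1.46 in the high_iron libraries. Kitl was higher in every high_iron library than in any control_iron library without passing the threshold. Angpt2 had nearly the same mean in both groups, and Pdgfb was near the lower limit of what was tested.

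The libraries held between 12963510 and 21663543 reads in genes. To compare libraries, levels are in CPM (counts per gene relative to a scaled library size), and to compare genes in RPKM, which is CPM relative to gene length. A gene was tested if it reached 1 CPM in at least 3 of the 6 libraries, which 12980 genes and all 6 members did. The test was limma on log2(CPM + 1), with Benjamini-Hochberg adjustment over all genes tested and a threshold of 0.05. It called 1.02% of the genes tested, edgeR on recovered reads 0.863% and DESeq2 3.27%. The groups did not overlap for 17.9% of them, with 9.46% higher and 8.44% lower in every high_iron library. An unadjusted limma p under 0.05 was found for 12.1% of the genes tested. The endothelial identity of the sort was visible in Pecam1, which encodes CD31, at 549 to 737 CPM, and in Stab1, Stab2 and Kdr, with mean levels from 2926 to 4182 CPM in a group. Mcam, which encodes CD146, was lower, at means of 18.4 ± 8.46 and 8.85 ± 2.26 CPM in the control_iron and high_iron groups (SD, n = 3). The 13 endothelial markers, all tested, summed to 22458, 22001 and 24046 CPM in control_iron replicates 1 to 3. In high_iron replicates 1 to 3 they summed to 20976, 20922 and 20552 CPM, without overlap. Of the 13, 2 had a positive log2 fold change, and the median was -0.20. By limma and edgeR 0 passed, and by DESeq2 1, Lyve1, which was higher in the high_iron group. Its log2 fold change was 0.64 (limma adjusted p = 0.12, DESeq2 adjusted p = 0.026), against the direction of the sum. The part of the lower endothelial sum in the levels of the members was not tested.

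The 250 bases before the annotated start are shown for the gene that passed the test, Hgf, and for Tek, the receptor that serves as the denominator of both ratios. They are RefSeq sequences on GRCm38.p6, both on the plus strand. The Hgf window is chr5:16553245-16553494 and the Tek window is chr4:94739039-94739288. Capitals mark a match to the forkhead motif GTAAACA, which binds FOXO proteins among others, on either strand.
Hgf: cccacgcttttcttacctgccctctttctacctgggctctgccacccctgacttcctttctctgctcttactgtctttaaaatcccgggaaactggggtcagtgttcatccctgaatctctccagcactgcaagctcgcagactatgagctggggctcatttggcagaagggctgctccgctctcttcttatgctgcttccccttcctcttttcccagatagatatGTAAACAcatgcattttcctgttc
Tek: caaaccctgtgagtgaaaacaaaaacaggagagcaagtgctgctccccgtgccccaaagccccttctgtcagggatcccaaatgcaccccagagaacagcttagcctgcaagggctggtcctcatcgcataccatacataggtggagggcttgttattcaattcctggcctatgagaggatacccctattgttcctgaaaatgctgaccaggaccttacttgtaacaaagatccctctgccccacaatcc
The Hgf window holds 1 such match, from base -24 to base -18 before the start, and 3.17% of the 32851 RefSeq windows of the same length hold one. None of the other windows of the members in that table, a second one of Hgf and one each of Tek, Tie1 and Kitl, holds a forkhead match. The antioxidant response core TGACNNNGC, the hypoxia response core ACGTG and the ETS motif CCGGAAGT, each searched on both strands, had no match in these 5 windows; 10.2%, 16.6% and 2.88% of all windows hold them. The Kitl window stood apart by composition: 69.2% of its bases were G or C, against a median of 52.4% over all windows, it held 3 matches to the GC box GGGCGG, a pair of which overlap, and 1 match to TATAAA from base -25 to base -20. GC boxes are in 32.7% and TATAAA in 12.4% of all windows. The Hgf and Tek windows shown were 50.8% and 51.2% G or C. These matches describe letters in the window and not binding.

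Per length, the receptors were the most abundant members. In control_iron libraries Tek was at 174 ± 52.0 and Tie1 at 156 ± 39.4 RPKM (SD, n = 3), followed by Kitl at 19.6 ± 0.491, Angpt2 at 11.6 ± 2.32, Hgf at 9.08 ± 0.907 and Pdgfb at 0.717 ± 0.488 RPKM. In high_iron libraries the order was Tie1 at 194 ± 19.7, Tek at 134 ± 11.5, Hgf at 35.6 ± 12.9, Kitl at 24.9 ± 3.04, Angpt2 at 11.9 ± 0.573 and Pdgfb at 0.369 ± 0.246 RPKM. Hgf thus stood below Angpt2 in all 3 control_iron libraries and above it in all 3 high_iron libraries. Neighbours whose ranges overlapped were Tek and Tie1 in the control_iron group and Hgf and Kitl in the high_iron group, where Hgf was the higher of the pair in replicates 1 and 2 and the lower in replicate 3.

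**Figure D1:**
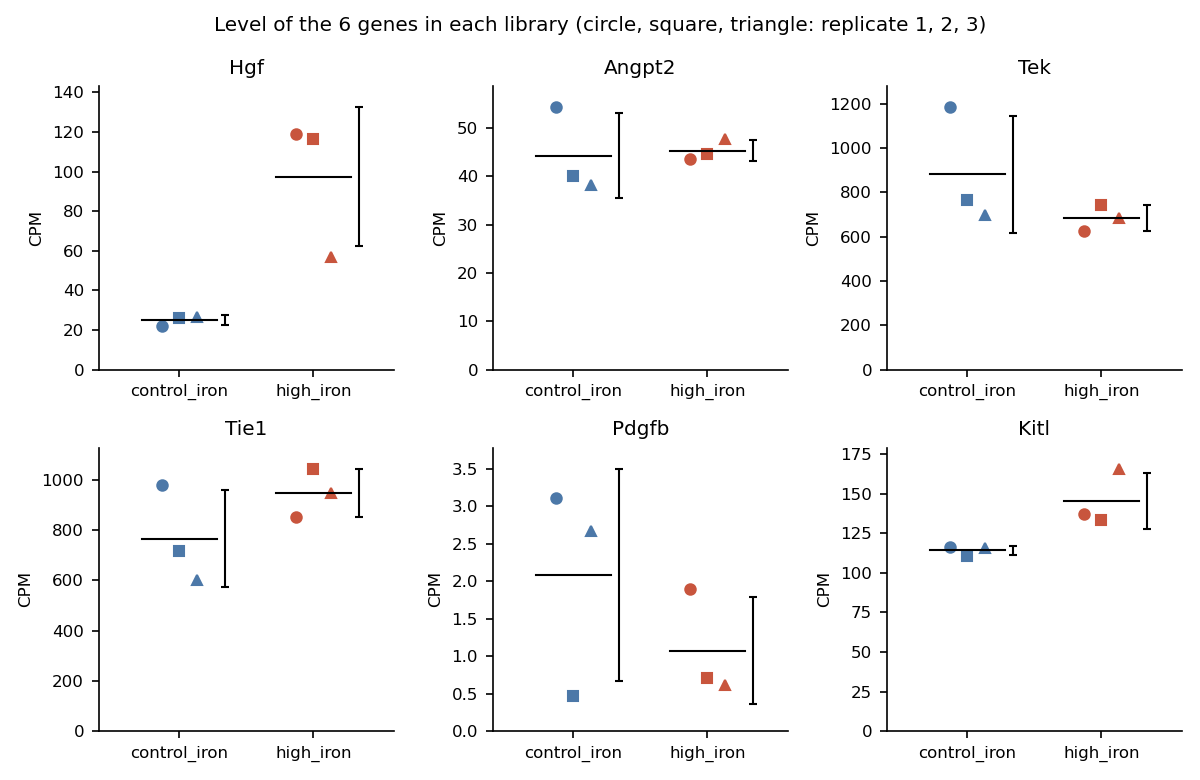
CPM of the 6 genes in each library (circle, square and triangle are replicates 1, 2 and 3; horizontal line, mean; bar, SD, n = 3 per group), on axes that start at 0. The high_iron libraries lie above the control_iron libraries for Hgf, from 56.7 CPM, and for Kitl, from 134 CPM, and the groups overlap for the other genes.

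Hgf (ENSMUSG00000028864) is a gene of the plus strand of chromosome 5, bases 16553495 to 16620152 of GRCm38, with 19 merged exons in GENCODE M21. It was at 22.0, 26.2 and 26.3 CPM in control_iron replicates 1 to 3 and at 119, 116 and 56.7 CPM in high_iron replicates 1 to 3. The lowest high_iron library, replicate 3, was still above every control_iron library. The means were 24.8 ± 2.48 and 97.4 ± 35.2 CPM (SD, n = 3), and the log2 fold change was 1.86 ± 0.26 (± SE, limma adjusted p = 0.013), a 95% interval of 2.41-fold to 5.44-fold. Counts behind these levels ran from 423 to 2317 reads per library. In the fits with 1 library left out the log2 fold change stayed between 1.68 and 2.20, but the adjusted p crossed the threshold without control_iron replicate 3 (0.0507), high_iron replicate 1 (0.0509) and high_iron replicate 2 (0.071). A gene model on the same strand, Gm43489, covers 6.74% of the exon length of Hgf and is not a row of the deposited table. In bulk RNA of sorted cells, more cells of a type and more RNA per cell cannot be told apart.

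Markers of stellate cells, a known source of Hgf, and of other cell types were read in the same libraries. The 19 stellate cell and fibroblast markers, all present in the table and led by Rgs5, Vipr1 and Dcn, summed to 220, 1569 and 758 CPM in control_iron replicates 1 to 3 and to 325, 1700 and 979 CPM in high_iron replicates 1 to 3. These sums varied more within each group than between the groups. Of the 18 stellate markers tested none passed the threshold by limma, edgeR or DESeq2, 1 had an unadjusted p under 0.05, and their median log2 fold change was 0.25, where that of all genes tested was -0.003. Lrat, which encodes the retinol esterifying enzyme that defines quiescent stellate cells, was at 6.61 ± 5.35 and 4.79 ± 4.46 CPM (SD, n = 3). Vipr1 and Rgs5 had log2 fold changes of 0.62 and 0.31 with intervals from -1.14 to 2.38 and from -1.22 to 1.84. The part of stellate cells in the Hgf difference was not tested.

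Kupffer cell and macrophage markers were also higher in the high_iron libraries. Their 16 genes summed to 79.1, 181 and 98.0 CPM in control_iron and to 531, 267 and 365 CPM in high_iron replicates 1 to 3, so these groups did not overlap. Of 15 tested, 3 rose (Clec4f, Csf1r and Marco), where 0.832% of all genes did, all 15 had a positive log2 fold change, and the median was 1.66. All 15 had a limma p under 0.05 before adjustment, where 12.1% of all genes do, and the groups did not overlap for 12 of them, all higher, where 9.46% of all genes are. By edgeR 2 passed and by DESeq2 10, and with 1 library left out limma called between 0, without high_iron replicate 3, and 6, without control_iron replicate 2. The most abundant were Clec4f, at 21.6 ± 15.9 and 94.7 ± 22.0 CPM (SD, n = 3), C1qb, at 27.8 ± 6.23 and 48.2 ± 21.1 CPM (limma adjusted p = 0.38), and Cd5l, at 14.1 ± 9.71 and 60.8 ± 21.6 CPM (limma adjusted p = 0.051). The part of these cells in the Hgf difference was not tested. Platelet and megakaryocyte markers, mostly Clec1b, summed to between 312 and 461 CPM in the control_iron group and between 511 and 658 CPM in the high_iron group, and none of the 6 tested passed by limma (2 with p under 0.05 before adjustment, 0 by edgeR, 1 by DESeq2). Gp1ba and Pf4, next in level, had log2 fold changes of 0.91 and -0.43. The sum was thus mostly that of 1 gene and is not a measure of platelet content. Hepatocyte markers summed to 294, 1291 and 763 CPM in control_iron and to 677, 1337 and 1067 CPM in high_iron libraries, with all 14 log2 fold changes positive, a median of 0.60 and none past the limma threshold (4 with p under 0.05 before adjustment, 0 by edgeR, 2 by DESeq2). The most abundant, Alb, Apoa2 and Apoa1, had log2 fold changes of 0.57, 0.20 and 0.52. Smooth muscle, cholangiocyte and mesothelial markers summed to under 25 CPM in every library.

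**Figure D2:**
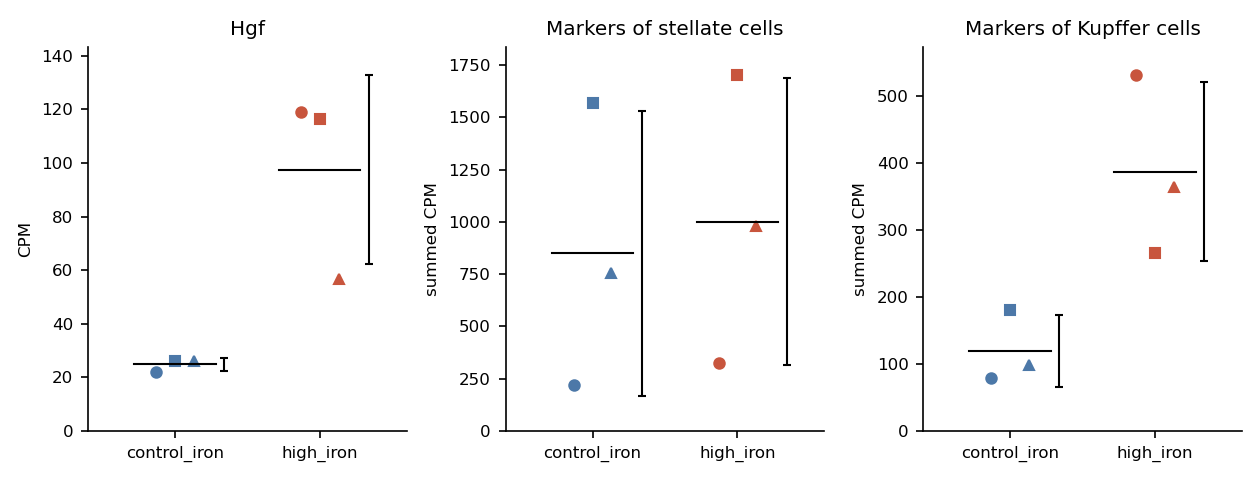
CPM of Hgf beside the summed CPM of 19 stellate cell markers and 16 Kupffer cell and macrophage markers in each library (circle, square and triangle are replicates 1, 2 and 3; line, mean; bar, SD, n = 3 per group). The stellate sums span 220 to 1569 CPM in control_iron and 325 to 1700 CPM in high_iron libraries, and the macrophage sums are higher in all 3 high_iron libraries.

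No other gene of the HGF system passed the threshold. Of 12 listed, 7 were tested, 1 rose (Hgf) and none fell, with a median log2 fold change of 0.13. Met, the HGF receptor gene, was near the limit of detection at 0.470 ± 0.280 and 0.761 ± 0.625 CPM (SD, n = 3) and was not tested. Plau, the urokinase gene whose product can cleave the HGF precursor, was at 23.3, 12.5 and 18.4 CPM in control_iron and at 10.9, 6.13 and 11.8 CPM in high_iron replicates 1 to 3. The groups of Plau did not overlap, with a log2 fold change of -0.85 ± 0.29 (± SE) that did not pass (limma adjusted p = 0.27). Spint2, an inhibitor of the serine proteases that activate HGF, was the most abundant gene of the list, at 182 ± 30.0 and 146 ± 19.2 CPM (log2 fold change -0.31, limma adjusted p = 0.47). Hgfac and Hpn, 2 activating proteases known from hepatocytes, were at 4.62 ± 3.49 and 5.53 ± 3.13 CPM and at 7.01 ± 4.51 and 8.12 ± 2.59 CPM.

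Tek (ENSMUSG00000006386) and Tie1 (ENSMUSG00000033191) both lie on chromosome 4, Tek at bases 94739289 to 94874976 (plus strand) and Tie1 at bases 118471191 to 118490061 (minus strand). Tek was at 1185, 765 and 698 CPM in control_iron and at 625, 742 and 683 CPM in high_iron replicates 1 to 3. Control_iron replicate 1 stood well above the rest, and the groups overlapped. The log2 fold change of Tek was -0.33 ± 0.20 (± SE, limma adjusted p = 0.53), with a 95% interval from 0.582-fold to 1.09-fold, and it was -0.10 without control_iron replicate 1 (limma adjusted p = 0.74).

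Tie1 was at 979, 715 and 603 CPM in control_iron and at 852, 1045 and 948 CPM in high_iron replicates 1 to 3. Here too control_iron replicate 1 was the highest of its group, and it lay inside the high_iron range. The log2 fold change of Tie1 was 0.33 ± 0.19 (limma adjusted p = 0.51), with an interval from 0.939-fold to 1.69-fold, and it was 0.52 without control_iron replicate 1 (limma adjusted p = 0.12).

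Set against each other within a library, where the scaling of the library cancels, the receptors separated the groups. The ratio of Tie1 to Tek in RPKM was 0.857, 0.970 and 0.897 in control_iron and 1.42, 1.46 and 1.44 in high_iron replicates 1 to 3. Tek was the higher of the pair in all 3 control_iron libraries and Tie1 in all 3 high_iron libraries. The mean ratio went from 0.908 ± 0.0572 to 1.44 ± 0.0228 (SD, n = 3), a difference of 0.67 on the log2 scale, and the exact two-sided permutation test gave p = 0.1, the smallest that 3 against 3 libraries allow. The gap between the groups, from 0.970 to 1.42, was several times the SD within either group, and leaving out 1 library kept the difference between 0.63 and 0.71. A within-library ratio shows unequal change of the pair and does not say which of them changed.

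Markers of large-vessel endothelium were lower in sum in the high_iron libraries. Their 15 genes, all tested, summed to 3748, 3414 and 2855 CPM in control_iron and to 2390, 2322 and 2445 CPM in high_iron replicates 1 to 3, without overlap. By limma 1 of them fell, as did 0.193% of all genes, 3 had p under 0.05 before adjustment, edgeR and DESeq2 passed 1 each, and the median log2 fold change was -0.16. The gene was Plvap, which encodes the diaphragm protein of fenestrated and venous endothelium and makes up much of that sum. Plvap was at 2052, 1983 and 1357 CPM in control_iron and at 861, 977 and 881 CPM in high_iron libraries (limma adjusted p = 0.045), and it passed in 1 of the 6 fits with 1 library left out, the one without control_iron replicate 3. Cdh13 and Ly6a, next in level, had log2 fold changes of -0.31 and 0.47 (limma adjusted p = 0.41 and 0.60). The lower sum was thus mostly that of Plvap and is not a measure of large-vessel endothelium content. Of 7 lymphatic markers 3 were tested and none passed by limma, edgeR or DESeq2 (0 with p under 0.05 before adjustment). They were Flt4, at 1307 ± 134 and 1518 ± 233 CPM (SD, n = 3), Reln and Prox1, and the sums of all 7 overlapped between the groups, at 1224 to 1468 and 1400 to 1843 CPM. The lymphatic sum was mostly that of Flt4 and is not a measure of lymphatic endothelium content. The part of these vessel types in the ratio was not tested.

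**Figure D3:**
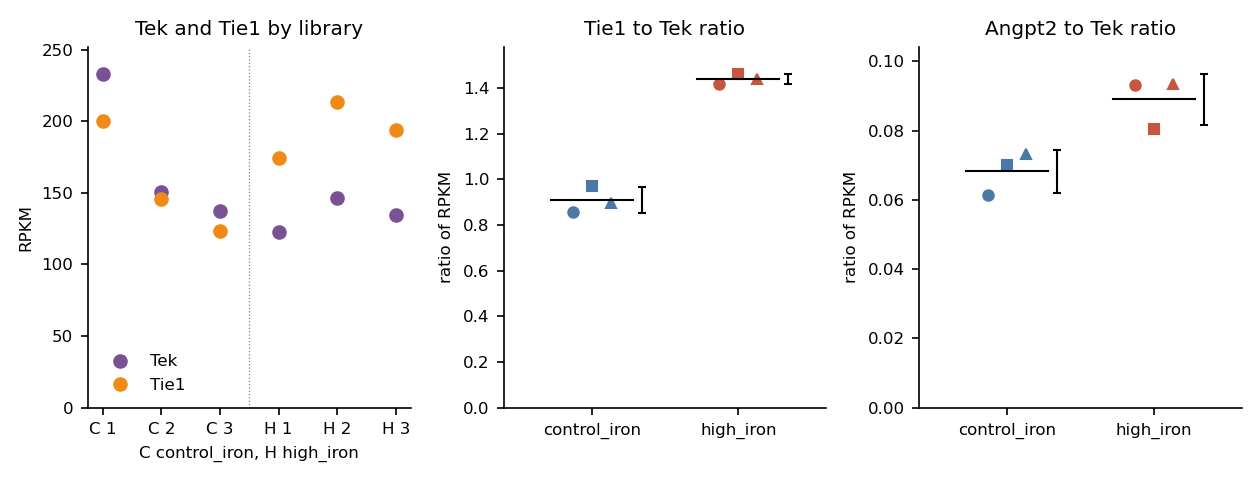
Left, RPKM of Tek and Tie1 in each library (C, control_iron; H, high_iron). Middle and right, the ratios of Tie1 to Tek and of Angpt2 to Tek in RPKM (circle, square and triangle are replicates 1, 2 and 3; line, mean; bar, SD, n = 3 per group): the Tie1 to Tek ratios lie between 0.857 and 0.970 in control_iron and between 1.42 and 1.46 in high_iron libraries.

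Angpt2 (ENSMUSG00000031465, chromosome 8 from 18690263 to 18741562, minus strand) was at 54.3, 40.1 and 38.2 CPM in control_iron and at 43.5, 44.7 and 47.7 CPM in high_iron replicates 1 to 3. The high_iron libraries all lay inside the control_iron range. The log2 fold change was 0.05 ± 0.16 (± SE, limma adjusted p = 0.92), and the 95% interval from 0.802-fold to 1.34-fold leaves room for a change of about that size in either direction. Angpt1, the agonist ligand of TEK that perivascular cells make, was at most at 0.208 RPKM in any library and was not tested, against 10.1 to 14.3 RPKM of Angpt2. The ratio of Angpt2 to Tek was 0.0613, 0.0701 and 0.0732 in control_iron and 0.0931, 0.0805 and 0.0934 in high_iron replicates 1 to 3. These groups did not overlap either, with a difference of 0.38 on the log2 scale and an exact two-sided permutation p of 0.1, again the smallest possible. Both ratios have Tek as denominator, so these separations are not independent. How often ratios of other gene pairs separate the groups was not examined.

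None of the 12 tested genes of the angiopoietin-Tie system passed the limma threshold, of 14 listed. Before adjustment 3 had p under 0.05, where 12.1% of all genes tested do, and edgeR passed 0 and DESeq2 1, which was Dok2. The median log2 fold change was -0.13. Dok2, an adaptor that docks on activated TEK and is also known from blood cells, was at 4.47, 4.13 and 3.76 CPM in control_iron and at 8.42, 8.25 and 8.76 CPM in high_iron libraries. Its groups were far apart for their spread, with a log2 fold change of 0.89 ± 0.20 (± SE, limma adjusted p = 0.074, DESeq2 adjusted p = 0.0085). Ptprb, the gene of the endothelial phosphatase VE-PTP that removes phosphate from TEK, was the most abundant gene of the system per length, at 334 ± 35.4 and 280 ± 9.22 RPKM (SD, n = 3), without overlap between the groups and without passing (limma adjusted p = 0.58). Foxo1, the transcription factor that active TEK signalling keeps out of the nucleus through AKT, was at 206, 208 and 247 CPM in control_iron and at 171, 156 and 159 CPM in high_iron libraries. Its log2 fold change was -0.44 ± 0.13 (± SE, limma adjusted p = 0.19), again without overlap.

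Target genes of FOXO1 had fold changes of both signs. Of 12 tested, none passed by limma, edgeR passed 0 and DESeq2 2, and 6 had p under 0.05 before adjustment, where 12.1% of all genes tested do. The median log2 fold change was 0.04. The groups did not overlap for 6 of the 12, 2 higher and 4 lower, where 9.46% and 8.44% of all genes tested are. Pdk4, which restrains the entry of pyruvate into the citric acid cycle, was at 62.5 ± 6.14 and 90.4 ± 6.99 CPM (SD, n = 3; limma adjusted p = 0.13, DESeq2 adjusted p = 0.026). Bcl2l11, the gene of the death-promoting protein BIM, was at 41.6 ± 10.2 and 22.3 ± 3.07 CPM (limma adjusted p = 0.10, DESeq2 adjusted p = 0.0071). Txnip, the thioredoxin-interacting protein gene and the most abundant of the list, was at 1854 ± 144 and 1443 ± 110 CPM (limma adjusted p = 0.38). Sesn1, a stress-induced sestrin gene and the next in level, was at 90.1 ± 15.3 and 93.0 ± 3.81 CPM (limma adjusted p = 0.89).

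**Figure D4:**
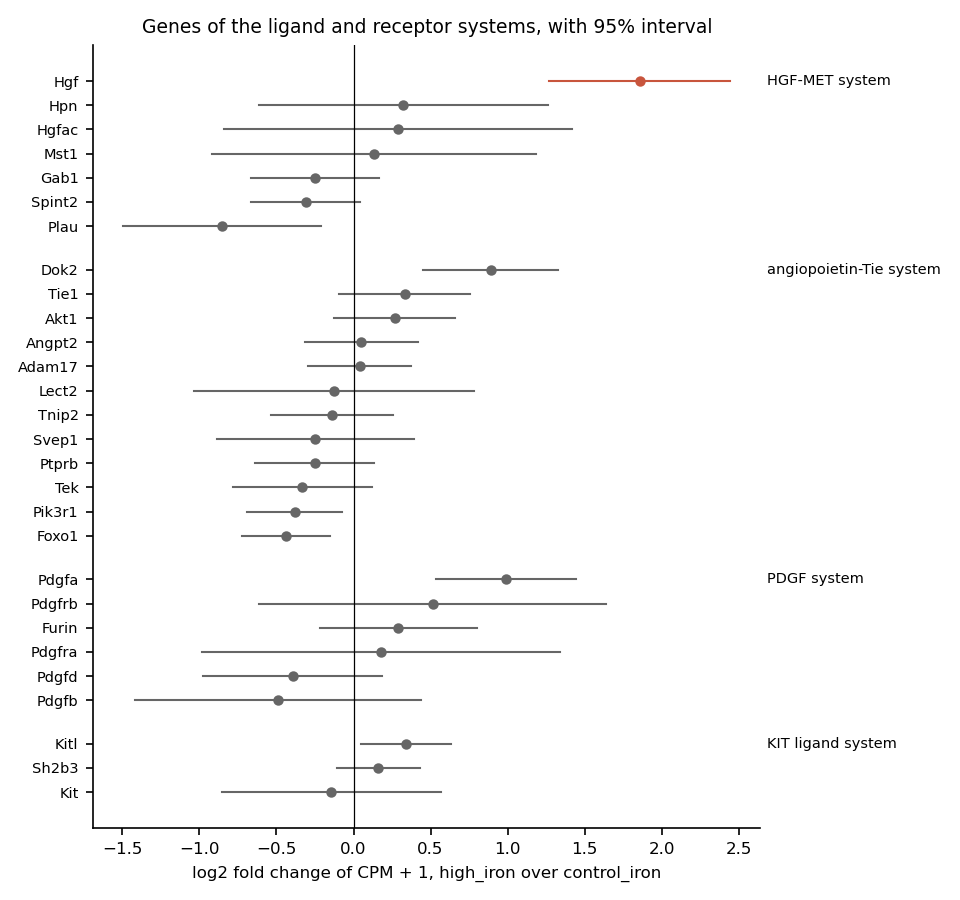
Log2 fold change of CPM + 1, high_iron over control_iron, with its 95% interval from limma, for the tested genes of the HGF, angiopoietin-Tie, PDGF and KIT ligand systems (3 libraries per group). Hgf, in red, is the gene that passed the adjusted threshold; genes in grey did not.

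Pdgfb (ENSMUSG00000000489, chromosome 15 from 79995874 to 80014977, minus strand) was the weakest of the 6, with 8 to 60 reads per library. It was at 3.12, 0.464 and 2.68 CPM in control_iron and at 1.90, 0.707 and 0.615 CPM in high_iron replicates 1 to 3. The lowest value of all was in a control_iron library, and the groups overlapped. The log2 fold change was -0.49 ± 0.41 (± SE, limma adjusted p = 0.65), with an interval from 0.374-fold to 1.35-fold, so that a difference was not detectable at this depth and spread. Of 6 tested genes of the PDGF system, out of 7 listed, none passed by limma, 0 by edgeR and 1 by DESeq2, 1 had p under 0.05 before adjustment, and the median log2 fold change was 0.24. The gene was Pdgfa, which encodes the ligand chain of PDGFRA, at 7.12, 8.45 and 9.62 CPM in control_iron and at 14.6, 18.7 and 19.8 CPM in high_iron libraries. The groups of Pdgfa did not overlap, and its log2 fold change of 0.99 ± 0.20 (± SE) just missed the threshold (limma adjusted p = 0.056, DESeq2 adjusted p = 0.0011). Furin, whose protease processes PDGF precursors among many others, was at 123 ± 11.0 and 157 ± 49.9 CPM (SD, n = 3; limma adjusted p = 0.62), and Pdgfd, which encodes another ligand of PDGFRB, at 6.85 ± 1.78 and 4.99 ± 1.36 CPM (limma adjusted p = 0.57). Pdgfrb, the receptor gene known from stellate cells and pericytes, was at 1.61, 6.36 and 2.68 CPM and at 2.05, 10.8 and 4.69 CPM, highest in replicate 2 of each group, as the stellate sum was.

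Kitl (ENSMUSG00000019966, chromosome 10 from 100015630 to 100100416, plus strand) was at 116, 111 and 116 CPM in control_iron and at 137, 134 and 166 CPM in high_iron replicates 1 to 3. The high_iron libraries were all higher, and the control_iron libraries lay within a few CPM of each other. The means were 114 ± 2.87 and 146 ± 17.7 CPM (SD, n = 3), with a log2 fold change of 0.34 ± 0.13 (± SE) that did not pass after adjustment (unadjusted p = 0.027, limma adjusted p = 0.34) and an interval from 1.03-fold to 1.55-fold. With Hgf, it made 2 of the 6 members whose high_iron libraries all lay above the control_iron libraries, where 9.46% of all genes tested do so. Kit, the receptor gene, which marks endothelium near the central vein, was more abundant per length than its ligand, at 87.4 ± 46.0 and 72.5 ± 10.2 RPKM. Kit was at 823 CPM in control_iron replicate 1 and between 285 and 493 CPM in the other 5 libraries, the same library that held the highest Tek level. Of the 3 tested genes of the KIT ligand system, out of 4 listed, none passed by limma, edgeR or DESeq2, 1 had an unadjusted p under 0.05, and the median was 0.16. Sh2b3, an adaptor that dampens KIT signalling, was at 243 ± 8.78 and 272 ± 19.3 CPM.

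Among 21 other angiocrine factors, 18 were tested and 1 rose, Bmp6, the ligand through which liver endothelium signals iron load to hepatocytes. Bmp6 was at 107, 165 and 110 CPM in control_iron and at 613, 875 and 810 CPM in high_iron replicates 1 to 3 (log2 fold change 2.59 ± 0.20, ± SE, limma adjusted p = 3.3e-04). Hgf and Bmp6 ordered the high_iron libraries differently: replicate 1 was the lowest for Bmp6 and the highest for Hgf. The median log2 fold change of these 18 was -0.07, and 4 had an unadjusted p under 0.05, where 12.1% of all genes tested do. Vegfc, the lymphatic growth factor that acts on the receptor FLT4, was at 15.4, 8.27 and 10.9 CPM in control_iron and at 4.88, 4.48 and 5.23 CPM in high_iron libraries, without overlap (log2 fold change -1.06 ± 0.24, limma adjusted p = 0.085, DESeq2 adjusted p = 0.0043). Bmp2 and Egfl7, the most abundant of the list, had log2 fold changes of 0.35 and -0.22 (limma adjusted p = 0.46 and 0.64).

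**Figure D5:**
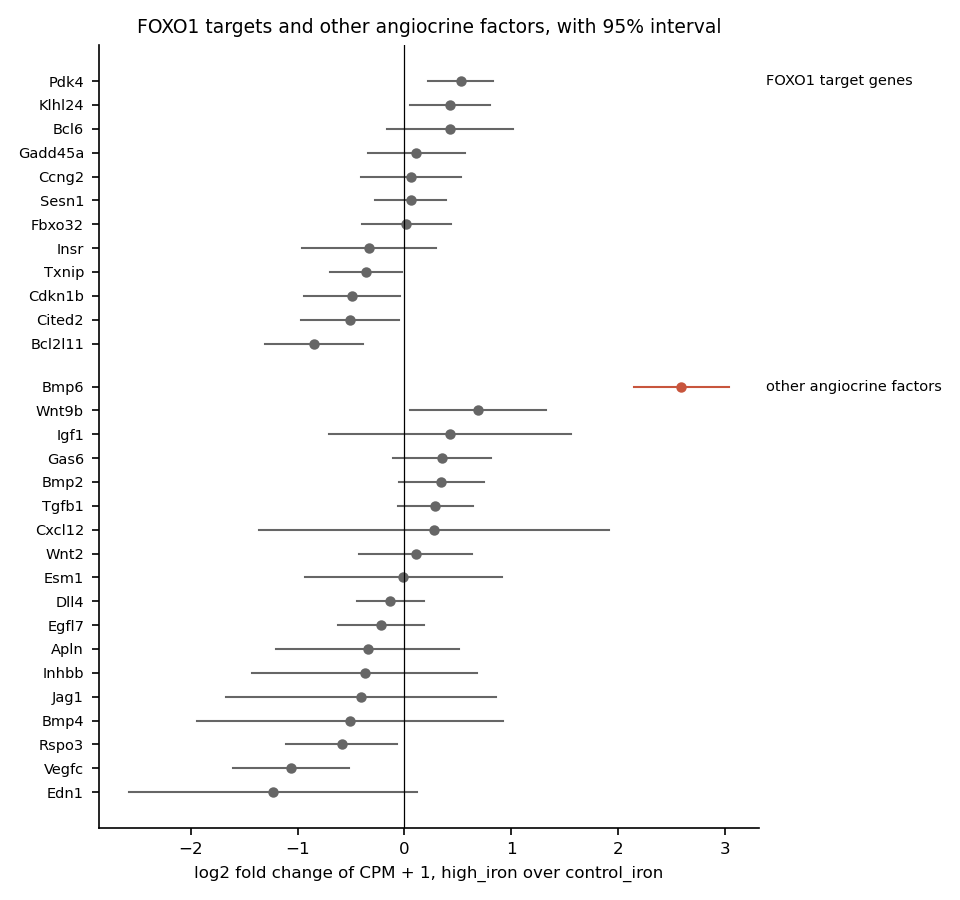
Log2 fold change of CPM + 1, high_iron over control_iron, with its 95% interval from limma, for the tested FOXO1 target genes and other angiocrine factors (3 libraries per group). Bmp6, in red, passed the adjusted threshold; FOXO1 targets lie on both sides of 0.

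The members did not share one pattern. Over the 6 libraries, as a description with group and library in common, log2(CPM + 1) of Tie1 and Angpt2 correlated most closely of all pairs of members (r = 0.81), Tek and Angpt2 next (r = 0.69), and Tek and Tie1 weakly (r = 0.31). Hgf correlated with Kitl at r = 0.63, with Tie1 at 0.50 and with Tek at -0.59. The genes closest to Hgf, among 9546 with a mean of at least 5 CPM, included Tbxas1 and Mbd1 (r = 0.990 each over 6 libraries), and like Hgf these were lower in high_iron replicate 3 than in replicates 1 and 2. Mbd1, a reader of methylated DNA, was at 47.8, 62.6 and 61.9 CPM in control_iron and at 144, 143 and 86.0 CPM in high_iron libraries (limma adjusted p = 0.051). Closest to Angpt2 were Fbxw5, Anxa3 and Ptk7, to Tek Narf, Phf8 and Taf1, to Tie1 Shoc2, Mfsd4 and Slc9a7, to Pdgfb Tmpo, Stard9 and Arl15, and to Kitl Efhd2, Spred1 and Arrdc4, with r from 0.975 to 0.998. With 6 libraries such values are common: 220 genes exceeded r = 0.95 with Tie1 and 14 to 38 with each of the others.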

How the data were processed

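Per the labels' protocols, RNA was isolated with a column kit, and libraries were made from 70 ng with a low-input cDNA kit. The tools STAR, HTSeq and edgeR and the build mm10 come from the submitters' processing notes, without versions, annotation or counting options. Deposited by the authors were a normalized signal named CPM, reads divided by a scaled library size, and RPKM values, which equal CPM per kilobase of length within 8.0e-11. Whole reads were recovered from all 114253 values above 0 (100% within 0.001 read), 12963510 to 21663543 per library. A level of 3 reads is 0.139 to 0.231 CPM, which covers counting error only.

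Genes were tested with limma 3.58.1 under R 4.3.3 (trend, group alone, two-sided, 4 residual degrees of freedom), fitted on 12980 genes with a pseudocount of 1. Fold changes on this scale understate those of low genes. As alternatives, the pseudocount was 0.1 or 0.5, the filter absent or 5 CPM, and further fits used edgeR 4.0.16 or DESeq2 1.42.0 on recovered reads, plain library totals, no trend, a replicate block, and each library left out. The fitting steps were tested on simulated data. Counts of replicates differed far beyond sampling noise (chi-square over degrees of freedom at least 18.2), so none was a duplicate.

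The members, the 180 listed genes (all in the table, 1 under another symbol) and the tests were chosen with earlier results of these data known. Named genes were the members, and in each pathway list those past the threshold, the 2 most abundant and the 2 with the smallest p, the 3 genes closest to each member by Pearson correlation (1 of them is not reported here), and the 3 most abundant markers of a list (for smooth muscle, cholangiocyte and mesothelial markers sums are given instead). Other named genes (Pecam1, Mcam, Lyve1, Lrat, Csf1r, Marco, Met, Hgfac, Hpn, Angpt1 and Pdgfrb) were chosen after their values were seen, as partners or markers. Near-identical transcripts were searched in GENCODE M21 with BLAST+ 2.17.0 at 95% identity over 50% of the length, and none was found for the members. RefSeq windows were found for 4 members.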

Additional observations from a re-analysis of the deposited data

How the results depend on the processing

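Each alternative changed 1 choice, except edgeR and DESeq2, which changed the values, the model and, for DESeq2, the normalization together. The count of all genes called was 133, and 34 without a filter, 424 by DESeq2 (133 of them shared), 74 without the intensity trend, 402 with the replicate block (132 shared) and 27 to 183 with 1 library left out. One member was called, Hgf, and none was without a filter on low values, where its log2 fold change was still 1.86 (limma adjusted p = 0.059), and 0 to 1 with 1 library left out, where its log2 fold change was 1.68 to 2.20 and 3 of the 6 fits passed. It was called under the other 8 alternatives. The log2 fold change of Angpt2 ran from -0.0435 to 0.205 with 1 library left out and was negative without control_iron replicate 2 (-0.0093) or 3 (-0.0435). Those of Tek, Tie1, Pdgfb and Kitl kept their sign and stayed short of the threshold in every fit that gave a value: -0.48 to -0.10, 0.18 to 0.52, -0.96 to -0.21 and 0.24 to 0.40 with 1 library left out. Pdgfb gave none at 5 CPM in 3 libraries, where it was not tested. The HGF list count of 1 became 0 without a filter, 2 with the replicate block and 0 to 1 with 1 library left out. The angiopoietin-Tie count of 0 became 1 by DESeq2 and 1 without the trend, the FOXO1 target count of 0 became 2 by DESeq2 and 1 with the block, and the PDGF count of 0 became 1 by each of these. The count of other angiocrine factors, 1, became 2 by each. These 4 counts and that of the KIT ligand list did not move with 1 library left out. The ratios of Tie1 to Tek and of Angpt2 to Tek kept their direction, with differences of 0.63 to 0.71 and 0.31 to 0.46 on the log2 scale with 1 library left out. The cause of these changes was not tested.

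The replicate numbers are not said to mark a shared day or litter, so the main fit used no block. Deviations of same-numbered libraries from their group means correlated at 0.13, 0.32 and 0.06. Those of libraries with different numbers correlated at -0.39 to 0.20, and control_iron replicate 3 correlated best with high_iron replicate 1. A fit with pairing by number is the replicate block among the alternatives above. Whether equal numbers mark true pairs was not tested. Depth limits what can be said of Pdgfb, Met and Angpt1.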
